A study of Mus musculus with 38 samples.

Results

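Back skin of mice carrying the P95H mutation of the splicing factor SRSF2 was compared with control skin after 12 days of 4-hydroxytamoxifen. The comparison used 7 of the 38 samples of the series, chosen by genotype and time: 2 P95H libraries and 5 control libraries, each from a mouse with its own number. The P95H mice were labelled SRSF2-P95H and positive for Krt14CreER, a tamoxifen-inducible Cre recombinase driven in keratin 14 cells. The controls were Cre negative and belonged to the same SRSF2 mutant set. Both groups were wild type for tdTomato, and both received 4-hydroxytamoxifen on the back skin every other day, so the drug is shared by all 7 mice. The label does not give the zygosity of P95H, the strain or the age of the animals. Cre is present in the P95H group alone, so its own activity cannot be told apart from the mutation. RNA came from whole skin, which also holds dermis, fat, muscle, vessels and immune cells in which keratin 14 Cre is not expected to act. In such bulk samples fewer cells of a type and less RNA per cell cannot be told apart.

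SRSF2 is a serine- and arginine-rich protein that binds exonic sequences and helps the spliceosome choose exons. It also takes part in releasing paused RNA polymerase from promoters. Proline 95 lies next to its RNA-binding domain, and its change to histidine, known from human myeloid neoplasms, shifts which RNA sequences the protein prefers. The tables used here hold 1 value per gene, so exon choice was not measured.

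Levels are given in steps, the smallest positive value of a library being 1 step. All values were whole multiples of it, and a gene at 1 step was undetected. The 7 libraries held 16.1 to 16.6 M steps (M, 1e6) and an estimated 10.6 to 19.3 M counted reads, and 24141 to 25814 genes lay above 1 step. The labelled tissue matched its markers. Keratinocyte Krt5 stood at 48037 and 54555 steps in P95H skin and 37440 to 45935 in control skin, fibroblast Col1a1 at 46856 and 62431 against 29228 to 54520, and muscle Acta1 at 50863 and 49289 against 64879 to 77767. Cd79a of B cells (2 and 3 steps against 1 to 4), Hba-a1 of erythrocytes (1 and 1 against 1 to 4) and Ly6g of neutrophils (1 and 5 against 1) were at or near 1 step. Several libraries stood apart. Wound keratinocyte genes were far higher in P95H replicate 2 than in replicate 1, and hair shaft genes were high in control replicates 2 and 5. Xist was low in P95H replicate 2 and control replicates 4 and 5 (1279 to 2750 steps) and high in the other 4 libraries (12096 to 13280). All 4 Y-linked genes measured split the libraries in the same way at low levels, Uty standing at 24 to 28 steps in the 3 libraries of low Xist and 3 to 9 in the others, Ddx3y at 12 to 15 and 4 to 6, Kdm5d at 12 to 16 and 4 to 6, and Eif2s3y at 10 to 12 and 5 to 7. The 2 P95H mice thus fell on different sides of this split. The part of this split in the results was not tested beyond a fit with a term for it, which gave 984 called genes.

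A gene was called when the Benjamini-Hochberg adjusted p of limma, fitted on log2(steps + 1) over all 14 libraries of the P95H set, was under 0.05. Of 18311 genes tested, 1269 (6.93%) were called at 12 days: 726 (3.96%) were higher and 543 (2.97%) lower in P95H skin. The change exceeded 1 log2 unit for 244 of the higher and 113 of the lower genes, and the median difference over all genes was -0.0018. Both P95H libraries lay above all 5 controls for 13.7% of genes and below all 5 for 14%, and 1262 of the 1269 called genes were among these. The count depended on the P95H library kept. It was 779 without P95H replicate 1 and 323 without P95H replicate 2. On the deposited values, which carry a further factor per library, 208 genes were called, 97 higher and 111 lower.

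**Figure D1:**
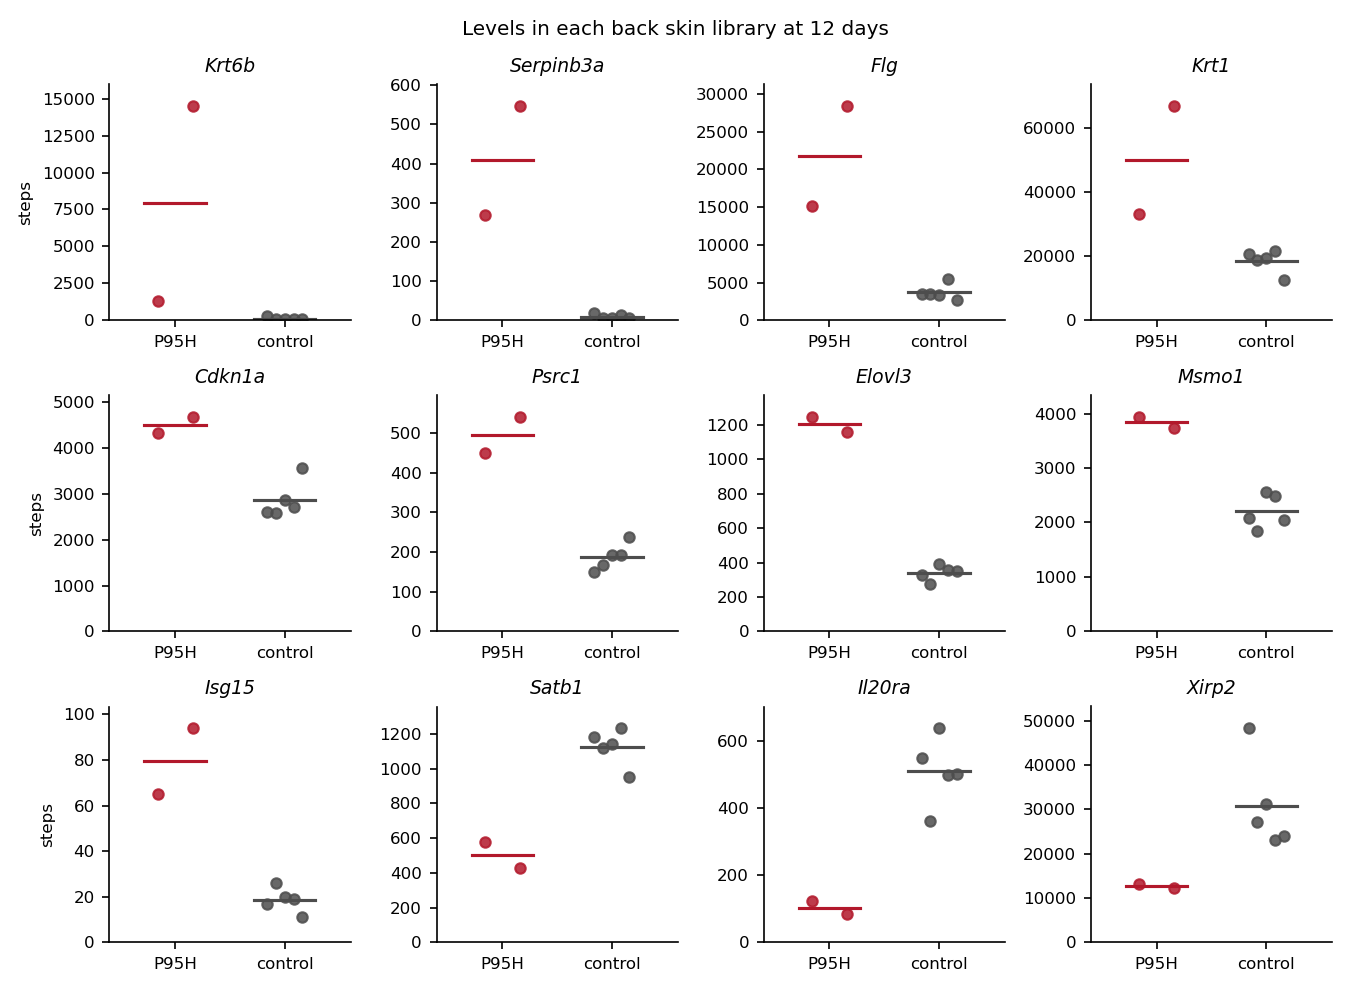
Steps (linear axes from 0) in each of the 2 P95H and 5 control back skin libraries at 12 days for 12 genes named in the text, with 1 point per library and a bar at the group mean. The groups do not overlap in any panel, and for Krt6b the 2 P95H libraries (1333 and 14500 steps) differ from each other by more than the controls do.

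Srsf2 itself did not differ detectably. The gene lies on the minus strand of chromosome 11 (chr11:116849901-116853094, GRCm38). It had 3586 and 3618 steps in P95H skin, against 3198, 3009, 3674, 3326 and 4094 steps in control skin. The 2 P95H values lay inside the control range (log2 difference 0.07 ± 0.12 SE, limma adjusted p = 0.802). Gene totals do not separate the mutant from the wild-type message, so this value does not test recombination. Of 200 tested genes within 5 Mb of Srsf2, 12 were higher and 4 lower (8% called, against 6.93% of all genes).

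Genes of wounded and stressed keratinocytes showed the largest rises. Of 35 tested members of this list 17 rose and none fell, against 3.96% and 2.97% of all genes, and the list's median log2 difference was 2.11. The list's mean level was 7.30 and 8.77 log2 units in P95H skin and 5.63 to 6.37 in control skin. Both P95H libraries lay above all 5 controls for 22 members, against 13.7% of all genes.

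Krt6b and Krt16, keratins of activated epidermis, were among the largest rises. Krt6b had 1333 and 14500 steps in P95H skin, against 272, 91, 86, 76 and 96 in control skin. Both P95H libraries were above every control, as the rule that named the gene required. The log2 difference was 5.32 ± 0.83 (limma adjusted p = 0.00161). Krt16, its usual partner, had 2712 and 18101 steps, against 702, 943, 514, 363 and 604 in control skin (log2 3.56 ± 0.60, adjusted p = 0.00242). The related Krt6a had 3044 and 16910 steps against 1107 to 3365, so that its groups overlapped, and did not pass (adjusted p = 0.0553). Krt17 had 9959 and 15120 steps against 7045 to 10691 and did not pass either (adjusted p = 0.148). Krt6a and Krt6b are near-identical copies whose reads the counting may have shared.

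Protease inhibitors and cornified envelope precursors were among the largest rises too. Serpinb3a, a serpin of inflamed epithelia, had 269 and 547 steps in P95H skin, against 18, 5, 7, 13 and 5 in control skin (log2 5.34 ± 0.45, limma adjusted p = 2.77e-05). It was the largest rise among genes named by the rule. The stefins Stfa1, Stfa2 and Stfa3, inhibitors of cysteine proteases, rose by log2 3.63, 4.47 and 3.14. The small proline-rich proteins Sprr1b (log2 3.97), Sprr2a3 (3.33), Sprr2a2 (3.04), Sprr2d (3.12) and Sprr2g (2.40), which are cross-linked into the cornified envelope, also rose. Stefin and Sprr2 genes belong to families of close copies, and their values are uncertain for that reason. The kallikrein protease Klk6 rose by log2 2.52 (556 and 2011 steps in P95H skin, 122 to 228 in control skin).

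Secreted signals of damaged epidermis rose as well. Epgn, an epidermal growth factor receptor ligand, had 633 and 376 steps in P95H skin, against 132, 74, 137, 93 and 144 in control skin (log2 2.11 ± 0.31, adjusted p = 0.00118). It was the only tested member of the list higher in P95H replicate 1 than in replicate 2. Hbegf, another ligand of that receptor, rose by log2 1.07 (178 and 297 steps in P95H skin, 93 to 134 in control skin). Il1b, an inflammatory cytokine, had 62 and 234 steps against 13 to 27 (log2 2.53, adjusted p = 0.00231), and Tslp, an epithelial cytokine that acts on dendritic cells, had 101 and 131 against 30 to 55 (log2 1.51, adjusted p = 0.00273). Lcn2, an iron-chelating protein of stressed epithelia, had 68 and 101 steps against 15 to 22. S100a8, an alarmin of keratinocytes and neutrophils, had 59 and 297 steps against 7 to 47 and did not pass (adjusted p = 0.0824). Outside the list, the gasdermin Gsdmc rose by log2 3.66 and the chitinase-like Chil1 by 3.19 (404 and 949 steps in P95H skin, 53 to 78 in control skin). Chil4, a chitinase-like gene undetected in all 5 controls, had 8 and 38 steps (limma adjusted p = 0.0404). It reached the mean of at least 50 steps asked of named rises only through the 28-day P95H libraries (60, 713, 112 and 308 steps).

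Much of this list's count rested on P95H replicate 2. Without that library 4 members passed, and without replicate 1 20 did. The fit without replicate 2 gave log2 3.60 for Krt6b (adjusted p = 0.0524) and 2.19 for Krt16 (adjusted p = 0.0718), while Serpinb3a, Stfa1, Stfa3 and Epgn passed in every alternative fit.

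**Figure D2:**
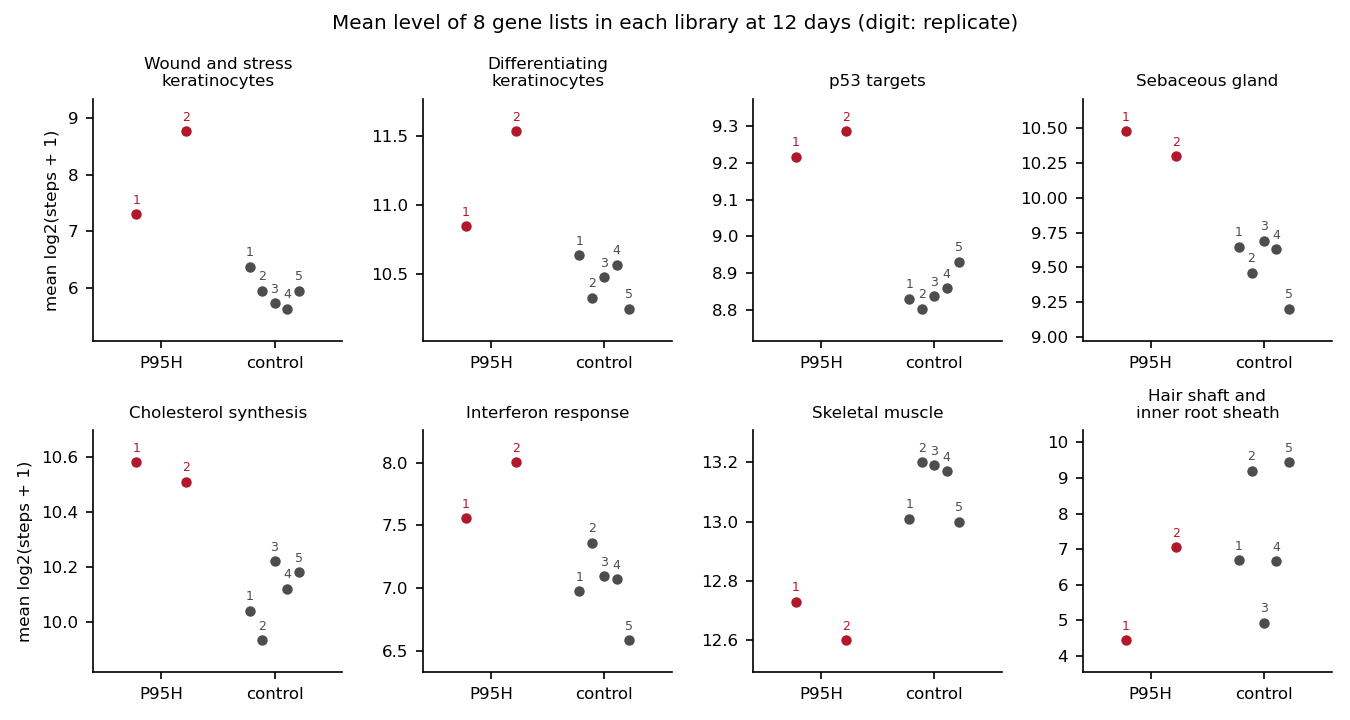
Mean log2(steps + 1) over the tested members of 8 gene lists in each library at 12 days, P95H left and control right, with the digit giving the replicate and a separate vertical axis for each list. In 7 of the lists the P95H libraries lie outside the control range, while for hair shaft genes they lie at 4.44 and 7.06 and the controls at 4.94 to 9.44.

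Genes of the differentiating epidermis changed in both directions. Of 47 tested members 16 rose and 4 fell, against 3.96% and 2.97% of all genes, with a median log2 difference of 0.60. Flg, the filament-aggregating protein of the granular layer, had 15077 and 28385 steps in P95H skin, against 3524, 3497, 3422, 5530 and 2655 in control skin. The P95H values did not come near the control range (log2 2.52 ± 0.28, adjusted p = 0.000177). The fused S100 protein Rptn rose by log2 3.39 (930 and 5921 steps in P95H skin, 181 to 310 in control skin). Krt1, the suprabasal type II keratin, had 33072 and 66833 steps against 20712, 18920, 19594, 21496 and 12469 (log2 1.36 ± 0.27, adjusted p = 0.00637). Its partner Krt10 had 47680 and 65455 steps against 32058 to 51976, overlapped the controls and did not pass (adjusted p = 0.412). Calcium-binding Calm4 and Calml3, the protease Casp14, the kallikreins Klk5 and Klk7, the desmosomal cadherin Dsc1 and the fatty acid elongase Elovl4 were among the genes that rose, by log2 0.60 to 1.49.

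Members of the late cornified envelope family moved apart from each other. Lce1g rose by log2 2.37 (678 and 1420 steps in P95H skin, 136 to 275 in control skin), and Lce1f, Lce1h, Lce3c and Lce3d rose by 1.48, 1.59, 2.50 and 2.80. Lce1m fell, with 2153 and 1209 steps in P95H skin against 3955, 3350, 4095, 4387 and 3312 in control skin (log2 -1.23 ± 0.18, adjusted p = 0.00102). The other falling members were Flg2, a relative of filaggrin (15089 and 12162 steps against 19853 to 29010), the desmoglein Dsg1a (11424 and 12632 against 16114 to 20314) and Krt77, a keratin of sweat ducts and interfollicular epidermis (36894 and 12063 against 41520 to 61867). All 4 lay below every control in both P95H libraries, which describes their spread only, since 1262 of the 1269 called genes did not overlap the controls. The count of rising members was 4 without P95H replicate 2, 19 without replicate 1 and 7 on the deposited values.

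In the basal layer 2 of 22 tested members rose and 4 fell, against 3.96% and 2.97% of all genes. Without P95H replicate 2 limma called 0 higher and 1 lower (1 and 6 unadjusted), and on the deposited values 0 and 0 (0 and 0 unadjusted). Krt14, whose promoter drives the Cre, had 30466 and 52001 steps in P95H skin, against 22422, 20961, 21479, 21463 and 18060 in control skin (log2 0.93 ± 0.19, adjusted p = 0.00766). The receptor Fgfr2 fell, with 2631 and 2376 steps against 4564, 3879, 4590, 4472 and 4514 (log2 -0.81 ± 0.10, adjusted p = 0.000388). Trp63, the master transcription factor of stratified epithelium, fell by 0.39 on the log2 scale (5562 and 5847 steps in P95H skin, 6820 to 8266 in control skin). The laminin chain Lama3 fell by 0.27 and the Notch ligand Dll1 by 0.39.

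Satb1, a chromatin organiser that acts downstream of p63 in epidermis, fell together with every tested gene around it. The locus was singled out after its values were seen. Satb1 (chr17:51736187-51833290, GRCm38, minus strand) had 576 and 426 steps in P95H skin, against 1181, 1122, 1143, 1235 and 952 in control skin. Both P95H libraries were below all controls (log2 -1.18 ± 0.13, adjusted p = 0.000164). Within 200 kb of it 10 genes were tested, Satb1 included, and all 10 were lower, by log2 -1.01 to -2.08. The other 9 are transcripts of uncertain coding status. Of these, 6 overlap Satb1 and 3 lie upstream of its start, and 5 are on its strand and 4 on the opposite strand. Gm37266, upstream on the opposite strand, had 21 and 13 steps in P95H skin, against 91, 63, 68, 77 and 71 in control skin (log2 -2.08 ± 0.24, adjusted p = 0.000293). At 28 days 8 of the 10 were lower. No label states whether the authors counted by strand, so reads of the overlapping transcripts and of unspliced Satb1 cannot be told apart. On the deposited values Satb1 stood at log2 -1.28 and did not pass (adjusted p = 0.353).

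**Figure D3:**
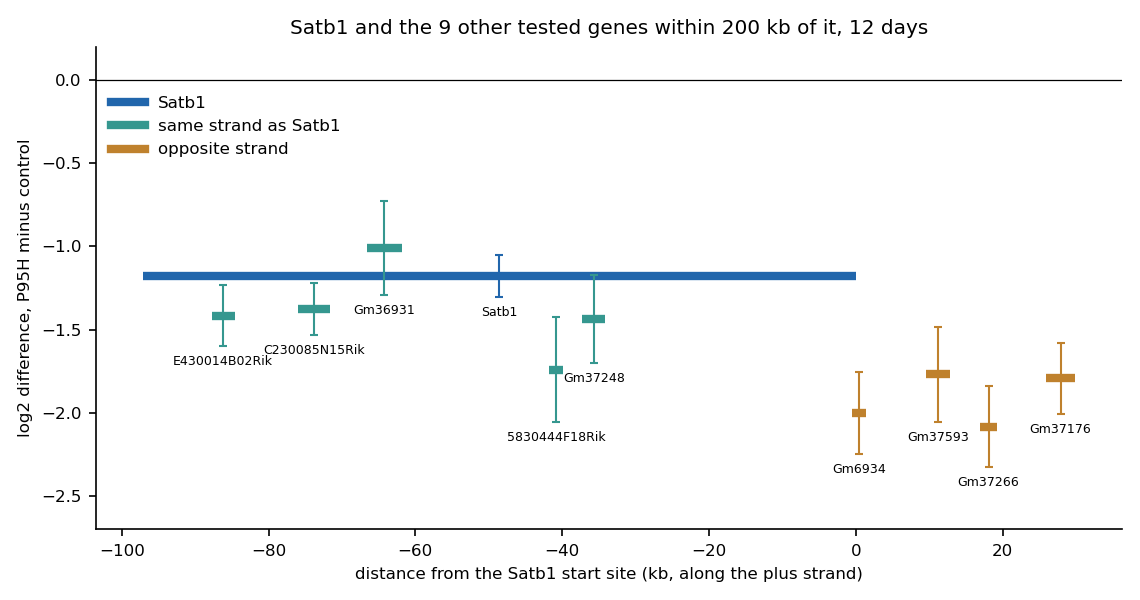
Log2 difference between P95H and control skin at 12 days (vertical axis, bars give the SE) for Satb1 and the 9 other tested genes within 200 kb, drawn as horizontal bars over their extent in kb from the Satb1 start site. All 10 lie below 0, from -1.01 to -2.08, on both strands and on both sides of the start site.

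Known targets of p53 were higher in P95H skin. Of 42 tested targets 17 rose and none fell, against 3.96% and 2.97% of all genes, and their median log2 difference was 0.43. Both P95H libraries lay above all controls for 24 targets and below all for 3, against 13.7% and 14% of all genes. The mean level of the list was 9.22 and 9.29 in P95H skin and 8.80 to 8.93 in control skin.

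Cell cycle arrest and death effectors were among them. Cdkn1a, the cyclin-dependent kinase inhibitor p21, had 4336 and 4684 steps in P95H skin, against 2600, 2585, 2869, 2708 and 3560 in control skin. The groups did not overlap (log2 0.66 ± 0.14, adjusted p = 0.0089). Pmaip1, the BH3-only death effector Noxa, had 259 and 262 steps against 81, 71, 90, 91 and 132 (log2 1.51 ± 0.22, adjusted p = 0.000977), and the death receptor Tnfrsf10b had 245 and 306 against 116, 121, 145, 128 and 113 (log2 1.14 ± 0.14, adjusted p = 0.000526). Apaf1, the scaffold of the apoptosome, rose by log2 0.65. Psrc1, a microtubule-associated protein, had 450 and 541 steps against 150, 168, 192, 193 and 238 (log2 1.40 ± 0.17, adjusted p = 0.000328). The RNA-binding protein Zmat3, the translesion polymerase Polk, the nuclease Aen, Ercc5 of nucleotide excision repair and the stress protein Sesn2 rose by log2 0.62, 0.85, 0.63, 0.42 and 0.48. Trp53 itself stood at 948 and 866 steps against 860 to 975 (log2 -0.0019, adjusted p = 0.992). Mdm2, which marks p53 for degradation, lay above all controls (1311 and 1605 steps against 1107 to 1224) but did not pass (log2 0.34 ± 0.11, adjusted p = 0.084).

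The p53 count was 9 without P95H replicate 1 and 5 without replicate 2, with list medians of 0.46 and 0.39. On the deposited values no target passed, 4 were higher at an unadjusted p under 0.05, and the median was 0.32 beside -0.10 for all genes.

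Few genes of cell division passed. Of 60 tested mitosis genes limma called 0, with 11 higher and 0 lower at an unadjusted p under 0.05, although 53 had a positive difference (median log2 0.30). Mki67 had 2416 and 2040 steps in P95H skin against 1353 to 2548 in control skin (adjusted p = 0.543), and Ccnb1 344 and 297 against 173 to 359 (adjusted p = 0.28). Of 46 replication genes 1 rose, the ribonucleotide reductase subunit Rrm1 (1212 and 1100 steps against 704 to 931, log2 0.57, adjusted p = 0.00689). Of 45 genes of homologous recombination and the Fanconi pathway limma called 0 (2 higher and 1 lower unadjusted), and of 59 replication-dependent histone genes 0 (5 higher and 0 lower unadjusted). Summed steps of the mitosis list were 18101 to 19703 in P95H skin and 12218 to 20096 in control skin, so the groups overlapped.

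Genes of RNA processing were nearly all uncalled. Among SR proteins (12 tested), core spliceosome (36) and pause release factors (22) limma called 0, with 0 higher and 1 lower, 0 and 0, and 1 higher and 2 lower at an unadjusted p under 0.05. Their median log2 differences were -0.08, 0.06 and -0.04. Of 25 hnRNP genes 1 fell, Hnrnpr (2005 and 1897 steps in P95H skin, 2380 to 2692 in control skin, log2 -0.41, adjusted p = 0.023). Of 15 genes reported as mis-spliced with SRSF2 P95 mutations 1 rose in total level (6.67%, against 3.96% of all genes) and none fell. The riser was the granulocyte growth factor receptor Csf3r (170 and 260 steps against 82 to 122, log2 1.06, adjusted p = 0.00724). At an unadjusted p under 0.05, 1 member was higher and 4 were lower. Both P95H libraries lay above all controls for 1 member and below all for 6, against 13.7% and 14% of all genes. Of 80 cytosolic ribosomal protein genes Rps2 rose (log2 0.60) and none fell.

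**Figure D4:**
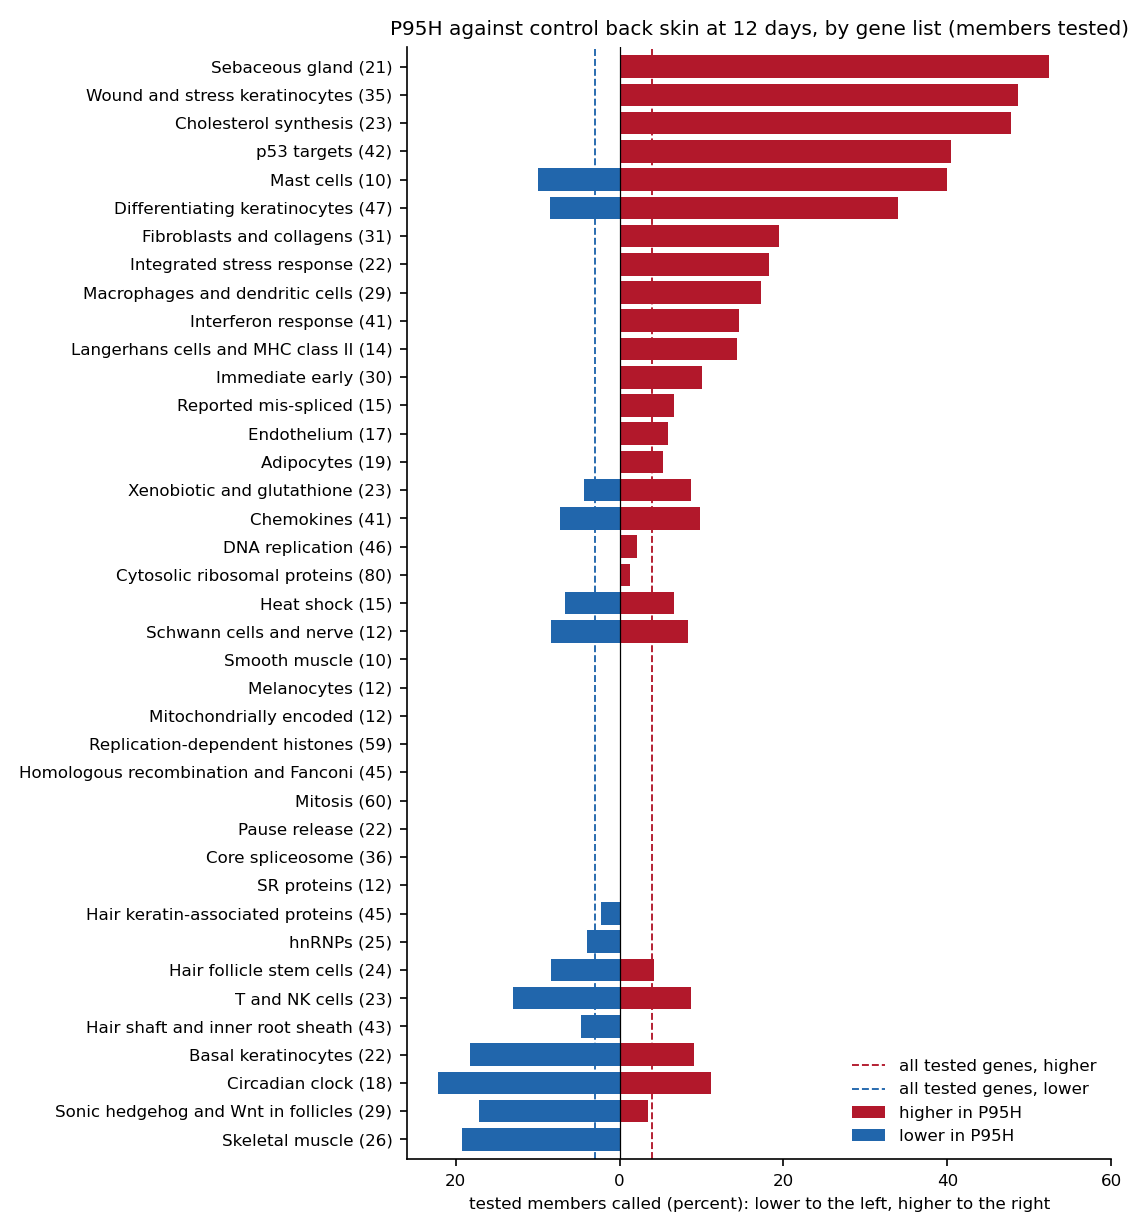
Percent of tested members called higher (red, right) and lower (blue, left) in P95H skin at 12 days for each gene list with at least 10 tested members, with the number tested in brackets and dashed lines at the shares of all tested genes (3.96% and 2.97%). Sebaceous gland, wound keratinocyte, cholesterol synthesis and p53 lists show 40.5% to 52.4% of members higher and none lower.

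Sebaceous gland genes rose. Of 21 tested members 11 rose and none fell, against 3.96% and 2.97% of all genes, and all 21 had a positive difference (median log2 0.91). Elovl3, a fatty acid elongase of sebaceous and hair follicle cells, had 1247 and 1160 steps in P95H skin, against 328, 276, 390, 357 and 349 in control skin (log2 1.83 ± 0.17, adjusted p = 3.57e-05). Both P95H libraries were far above every control and close to each other. Scd1, the stearoyl-CoA desaturase, had 74042 and 60206 steps against 43619, 37999, 38385, 34406 and 25614 (log2 0.91, adjusted p = 0.00585). The wax ester and triglyceride synthases Awat1 and Dgat2l6 rose by log2 1.74 and 1.79, the fatty acyl reductase Far2 by 1.28, the lipid droplet protein Plin2 by 1.04 and the keratin Krt79 of sebaceous ducts by 1.09. Fasn, Soat1, Mgst1 and Pparg, the nuclear receptor of sebocyte and fat cell differentiation, rose by 0.62, 0.99, 0.64 and 0.71. Fat cell markers moved in opposite directions in the 2 P95H mice. Adipoq stood at 1061 and 118 steps in P95H skin and 286 to 598 in control skin, and the mean level of 19 adipocyte genes was 11.03 and 9.52 against 10.07 to 10.36. Of these genes only Pparg, which both lists hold, passed, while 6 were higher without P95H replicate 2 and 5 lower without replicate 1. The sebaceous count was 4 without P95H replicate 1, 7 without replicate 2 and 3 on the deposited values.

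Cholesterol synthesis genes rose by smaller amounts. Of 23 tested members 11 rose and none fell, against 3.96% and 2.97% of all genes, with a median log2 difference of 0.46. The mean level was 10.58 and 10.51 in P95H skin and 9.93 to 10.22 in control skin. Msmo1, a sterol C4-methyl oxidase, had 3938 and 3744 steps in P95H skin, against 2076, 1841, 2554, 2490 and 2050 in control skin (log2 0.81 ± 0.12, adjusted p = 0.00127). Hmgcs1, the HMG-CoA synthase of the early pathway, had 6699 and 5404 steps against 3740 to 4902 (log2 0.46, adjusted p = 0.0206). Hsd17b7, Ebp, Nsdhl, Idi1, Lss and Cyp51 rose by log2 0.82, 0.78, 0.68, 0.68, 0.63 and 0.60. Insig1, the sterol sensor that restrains the pathway, rose by 0.83. The count was 5 without P95H replicate 1 and 6 without replicate 2. On the deposited values limma called none (0 at an unadjusted p under 0.05), with a median of 0.36 beside -0.10 for all genes.

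These genes are known targets of sterol regulatory element-binding proteins, which act beside the CCAAT-binding factor NF-Y. RefSeq promoter windows (GRCm38.p6), cut to the 250 bases before the start, were at hand for 16 of the 23 members. The letters CCAAT, searched on both strands, occurred in windows of all 16, in 81% of their 21 promoters, and in 33.8% of all 32851 promoters. The sterol element core TCACNCCA occurred in windows of 3 of the 16, in 14.3% of their 21 promoters, and in 3.67% of all promoters. The windows of 2 members that rose are shown because the pathway moved together, with both motifs in capitals on either strand, 5′ to 3′ in the direction of the gene and ending at the base before the start that RefSeq gives. Hmgcs1 lies at chr13:119690201-119690350 on the plus strand and Lss at chr10:76531505-76531604 on the plus strand.
Hmgcs1: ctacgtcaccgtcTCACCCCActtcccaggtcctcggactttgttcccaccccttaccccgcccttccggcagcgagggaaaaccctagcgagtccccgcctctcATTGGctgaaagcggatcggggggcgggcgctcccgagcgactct
Lss: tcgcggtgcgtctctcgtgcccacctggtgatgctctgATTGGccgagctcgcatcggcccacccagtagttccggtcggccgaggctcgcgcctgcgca
A match of letters is a description and does not show a bound site.

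Interferon response genes were shifted upward, but few passed. Of 41 tested members 6 rose (14.6%, against 3.96% of all genes) and none fell, while all 41 had a positive difference and 23 were higher at an unadjusted p under 0.05. The median log2 difference was 0.57, and the list's mean level was 7.558 and 8.001 in P95H skin and 6.58 to 7.36 in control skin. Isg15, a ubiquitin-like modifier, had 65 and 94 steps in P95H skin, against 17, 26, 20, 19 and 11 in control skin (log2 2.06 ± 0.44, adjusted p = 0.0108). Ifit1, which binds foreign RNA, had 92 and 167 steps against 27 to 48 (log2 1.72, adjusted p = 0.0102), and Oas1a, a sensor of double-stranded RNA, had 113 and 175 against 38 to 67 (log2 1.39, adjusted p = 0.00575). Ifit2, Ifi27l2a and Irf9, a subunit of the factor that binds interferon-stimulated elements, rose by 0.83, 1.35 and 0.47. Without P95H replicate 2 limma called 0 members (6 higher and 0 lower unadjusted), and Isg15 stood at log2 1.80 (adjusted p = 0.161). The deposited values gave 1 call. The core of that element, GAAA and GAAA again after any 2 bases, was searched on either strand. It occurred in the upstream windows of 16 of the 28 members matched to RefSeq promoters. Counted by promoter, it occurred in 45.7% of their 35 promoters and in 2.98% of all promoters. The windows of Isg15 (chr4:156200819-156200918, minus strand) and Oas1a (chr5:120907526-120907625, minus strand) are shown with these letters, overlapping matches included, in capitals.
Isg15: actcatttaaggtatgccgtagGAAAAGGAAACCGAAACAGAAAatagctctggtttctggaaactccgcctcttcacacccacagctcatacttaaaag
Oas1a: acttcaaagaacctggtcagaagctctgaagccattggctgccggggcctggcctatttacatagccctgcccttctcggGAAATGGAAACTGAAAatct

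Immune cell markers moved in different directions by cell type. Macrophage and dendritic cell genes rose in 5 of 29 cases and none fell, against 3.96% and 2.97% of all genes. The 5 calls became 1 without either P95H library, and on the deposited values limma called 0 (1 higher and 0 lower unadjusted). Cd14, a lipopolysaccharide co-receptor, had 233 and 374 steps in P95H skin, against 102, 123, 110, 100 and 82 in control skin (log2 1.52 ± 0.20, adjusted p = 0.000569), and the lysosomal proteins Ctss and Cd68 rose by 0.97 and 0.63. The defining markers Adgre1 (1401 and 1056 steps against 709 to 1014) and Csf1r (4143 and 3381 against 2534 to 3567) did not pass. Among chemokines and their receptors 4 of 41 rose (9.76%) and 3 fell (7.32%), and 1 was higher and 0 lower without P95H replicate 2 (9 and 5 unadjusted) and on the deposited values (5 and 2 unadjusted). The shares over all genes in the main fit were 3.96% higher and 2.97% lower. Cxcr2, a neutrophil chemokine receptor, had 99 and 126 steps against 16 to 37. Ccr7, which guides dendritic cells to lymph nodes, had 45 and 32 against 9 to 18, and Ccl22 had 260 and 205 against 70 to 136. Among those that fell, Ackr2 had 185 and 107 steps against 224 to 327 (log2 -0.91, limma adjusted p = 0.00721). Xcl1 had 20 and 8 against 33 to 45. The receptor Ccr4, a larger fall given below, is not on this list.

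The T cell receptor of gamma delta T cells, which populate mouse epidermis, was lower in message. Trdc, the constant region of the T cell receptor delta chain, had 119 and 57 steps in P95H skin, against 271, 196, 205, 295 and 236 in control skin. Both P95H values were below every control (log2 -1.52 ± 0.22, adjusted p = 0.000977). The receptor component Cd3e fell by 0.80 on the log2 scale, Cd3d by 0.92 and the chemokine Xcl1 by 1.54. The chemokine receptor Ccr4, among the largest falls, had 108 and 51 steps against 364, 321, 329, 430 and 299 (log2 -2.20 ± 0.23, adjusted p = 0.000139). Cd4 of helper T cells moved the other way (155 and 129 steps against 41 to 93, log2 1.15, adjusted p = 0.0406), as did Trac, the alpha chain constant region (32 and 33 against 12 to 22). In all, 2 of 23 T and NK cell genes rose and 3 fell, against 3.96% and 2.97% of all genes. Without P95H replicate 2 limma called 0 higher and 1 lower (2 and 1 unadjusted), and on the deposited values 0 and 0 (2 and 3 unadjusted).

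Mast cell genes also moved in both directions, with 4 of 10 higher and 1 lower, against 3.96% and 2.97% of all genes. The calls were 1 higher and 1 lower without P95H replicate 1, 0 and 0 without replicate 2 (4 and 0 unadjusted) and 0 and 1 on the deposited values (1 and 1 unadjusted). The proteases Mcpt4, Cma1 and Cpa3 and the histamine-forming enzyme Hdc rose by log2 0.84, 0.89, 0.67 and 1.58, and the mast cell receptor Mrgprb2 fell by 1.61 (53 and 19 steps in P95H skin, 68 to 137 in control skin). Its relatives Mrgprb3 (106 and 26 against 187 to 283) and the pseudogene Mrgprb11-ps (111 and 18 against 281 to 432) were among the largest falls. These are close copies of one another, and reads may be shared between them.

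The other genes with the largest falls included receptors, channels and enzymes. Tgm7, a transglutaminase, had 21 and 9 steps in P95H skin, against 221, 161, 180, 187 and 136 in control skin (log2 -3.57 ± 0.52, adjusted p = 0.00103). Il20ra, a subunit of the receptors for interleukins of the IL-20 family, had 124 and 84 steps against 550, 363, 639, 499 and 503 (log2 -2.29 ± 0.20, adjusted p = 2.81e-05). Il22ra2, a soluble decoy receptor for IL-22, had 66 and 17 against 117 to 190 (log2 -2.04). The potassium channel Kcnj16 fell by 2.48 on the log2 scale, the cation exchanger Slc24a3 by 1.89, the Wnt co-agonist Rspo3 by 1.85 and the alcohol dehydrogenase Adh6a by 1.83. Lama1, a laminin chain, had 61 and 28 steps against 178 to 387, and the carbonic anhydrase Car6 had 25 and 65 against 104 to 557. The rule that chose these genes required both P95H libraries to lie below all controls.

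Several Wnt pathway genes of the follicle fell, while hair shaft genes varied too much to compare. Of 29 tested genes of sonic hedgehog and Wnt signalling 5 fell and 1 rose, against 2.97% and 3.96% of all genes. Without P95H replicate 2 limma called 1 lower and 0 higher (9 and 1 unadjusted), and on the deposited values 0 lower and 1 higher (2 and 1 unadjusted). Axin2, a common Wnt target, had 931 and 933 steps in P95H skin, against 1277, 1295, 1280, 1307 and 1355 in control skin (log2 -0.48 ± 0.06, adjusted p = 0.000526). The ligands Wnt10b (57 and 53 steps against 102 to 196) and Wnt3 (611 and 479 against 646 to 851), the receptor Fzd10 and the feedback inhibitor Nkd2 fell by 1.23, 0.52, 0.61 and 0.87 on the log2 scale, and the inhibitor Dkk2 rose by 0.75. Among follicle stem cell genes Lhx2 and Lgr6 fell by 0.53 and 0.79 and Barx2 rose by 0.38.

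Hair shaft and inner root sheath genes had a median log2 difference of -1.72, yet only the transcription factors Gata3 and Foxq1 of 43 passed. Krt71, an inner root sheath keratin, had 24 and 880 steps in P95H skin, against 1347, 10486, 91, 629 and 4471 in control skin, and the groups overlapped (adjusted p = 0.236). All 45 tested keratin-associated protein genes had a negative difference, and 1 passed, Krtap12-1 (1 and 11 steps against 18 to 87). Without control replicates 2 and 5, the controls of highest hair level, the medians of the 2 lists were -0.36 and -0.21. The deposited values gave 20 hair shaft and 21 keratin-associated protein genes called lower, with medians of -1.82 and -2.06 beside -0.10 for all genes. Gata3, also expressed outside the follicle, had 3546 and 3539 steps against 5943, 6149, 5935, 5390 and 6470 (log2 -0.75 ± 0.10, adjusted p = 0.000766).

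Skeletal muscle genes were lower and fibroblast genes higher. Of 26 tested muscle genes 5 fell and none rose, against 2.97% and 3.96% of all genes. Both P95H libraries lay below all controls for 19, against 14% of all genes. Xirp2, an actin-binding repeat protein, had 13252 and 12211 steps in P95H skin, against 48349, 27179, 31124, 23073 and 23991 in control skin (log2 -1.22 ± 0.22, adjusted p = 0.00451), and Mylpf, Neb, Myl1 and Actn3 of the sarcomere fell by 0.72, 0.54, 0.64 and 0.85. The defining markers Acta1 and Ckm lay below all controls in both P95H libraries but did not pass (adjusted p = 0.116 and 0.15). Of 31 fibroblast and collagen genes 6 rose and none fell, against 3.96% and 2.97% of all genes. Among the risers were the proteoglycan Lum (2352 and 2404 steps against 968 to 1628, log2 0.87 ± 0.16, adjusted p = 0.00496), the collagen cross-linker Lox (log2 0.65) and Col6a3 (0.71). The defining markers Col1a1 and Pdgfra overlapped the controls and did not pass (limma adjusted p = 0.372 and 0.57). Without P95H replicate 2 limma called 0 muscle genes (8 lower and 1 higher unadjusted) and 0 fibroblast genes (7 higher and 1 lower unadjusted). On the deposited values it called 0 in both (4 lower and 1 higher, and 0 and 0, unadjusted). How much muscle or dermis each sample held was not tested.

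Smaller groups of metabolic and rhythm genes also passed. Of 22 genes of the integrated stress response 4 rose and none fell, against 3.96% and 2.97% of all genes: the serine synthesis enzymes Psat1 (1682 and 1596 steps in P95H skin, 870 to 1134 in control skin) and Psph, the transcription factor Cebpb and Sesn2, by log2 0.72, 0.66, 0.77 and 0.48. The stress response count was 2 without P95H replicate 2, and on the deposited values limma called 0 (1 higher and 0 lower unadjusted). Of 18 clock genes 4 fell and 2 rose, against 2.97% and 3.96% of all genes, and 1 was lower and 0 higher both without P95H replicate 2 (4 and 2 unadjusted) and on the deposited values (1 and 0 unadjusted). Hlf, an output transcription factor of the clock, had 257 and 232 steps in P95H skin, against 982, 782, 841, 886 and 687 in control skin (log2 -1.76 ± 0.15, adjusted p = 2.77e-05). Its relative Tef and the period gene Per3 fell by 0.45 and 0.51 on the log2 scale, and Bhlhe40 and Clock rose by 0.55 and 0.35. The time of day of collection is not in the labels.

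The genes with the smallest p were named after their values were seen, and ranking by p favours genes of small spread within groups. Mcam, a cell adhesion molecule, had 1452 and 1232 steps in P95H skin, against 614, 599, 637, 615 and 608 in control skin (log2 1.12 ± 0.08, adjusted p = 1.20e-05). Igsf9b, an immunoglobulin superfamily member, had 694 and 849 steps against 219 to 247 (log2 1.71, adjusted p = 1.54e-05), and Slurp1, a secreted protein of the upper epidermis, had 503 and 635 against 158 to 182 (log2 1.74, adjusted p = 1.54e-05). Gapdhs and Gm8615, which were placed on a list of strain-variable genes, rose by log2 3.86 (86 and 99 steps against 4 to 8) and 2.49 (58 and 76 against 9 to 15). That list was written with earlier results of these data known, so its count is a description and tests nothing. Of its 7 tested members these 2 rose and none fell, against 3.96% and 2.97% of all genes. The other 5 did not pass, and the list's median log2 difference was -0.02. The part of strain background in the results was not tested.

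At 28 days, in 4 other P95H and 3 other control mice, 2226 genes (12.2%) were called, 6.7% of all genes higher and 5.46% lower. Of the 12-day genes, 388 of the higher (53.4%) were higher and 305 of the lower (56.2%) were lower at 28 days as well, which is 31.6% and 30.5% of the 28-day calls. Of all 1269 genes 1203 had the same sign at 28 days and 1 was called in the opposite direction. A test of the difference between the 28-day and 12-day effects called 2 genes (0.0109%), with 1504 (8.21%) at an unadjusted p under 0.05, so most contrasts between the days below were not shown to differ.

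The lists differed in how many members were called on each day. Wound keratinocyte genes were similar, with 17 higher of 35 at 12 days and 22 at 28 days and medians of 2.11 and 1.93. p53 targets had 17 higher of 42 at 12 days and 18 at 28 days, where 2 were lower. Sebaceous genes had 11 higher of 21 at 12 days and 2 at 28 days (medians 0.91 and 0.17), and cholesterol genes 11 and 3 of 23 (medians 0.46 and 0.22). Interferon genes went the other way, with 6 higher of 41 at 12 days and 32 at 28 days (medians 0.57 and 1.27). For single members the difference between days was not called, as in Elovl3 (log2 1.83 and 0.77, adjusted p of the difference 0.279), Msmo1 (0.81 and 0.21, 0.386) and Isg15 (2.06 and 4.37, 0.361). The difference was called for Apol7a, an apolipoprotein L family member, whose P95H libraries at 12 days (80 and 84 steps) lay within the control range (55 to 89). Its log2 difference was 0.12 at 12 days and 2.53 at 28 days (adjusted p of the difference 0.00528).

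**Figure D5:**
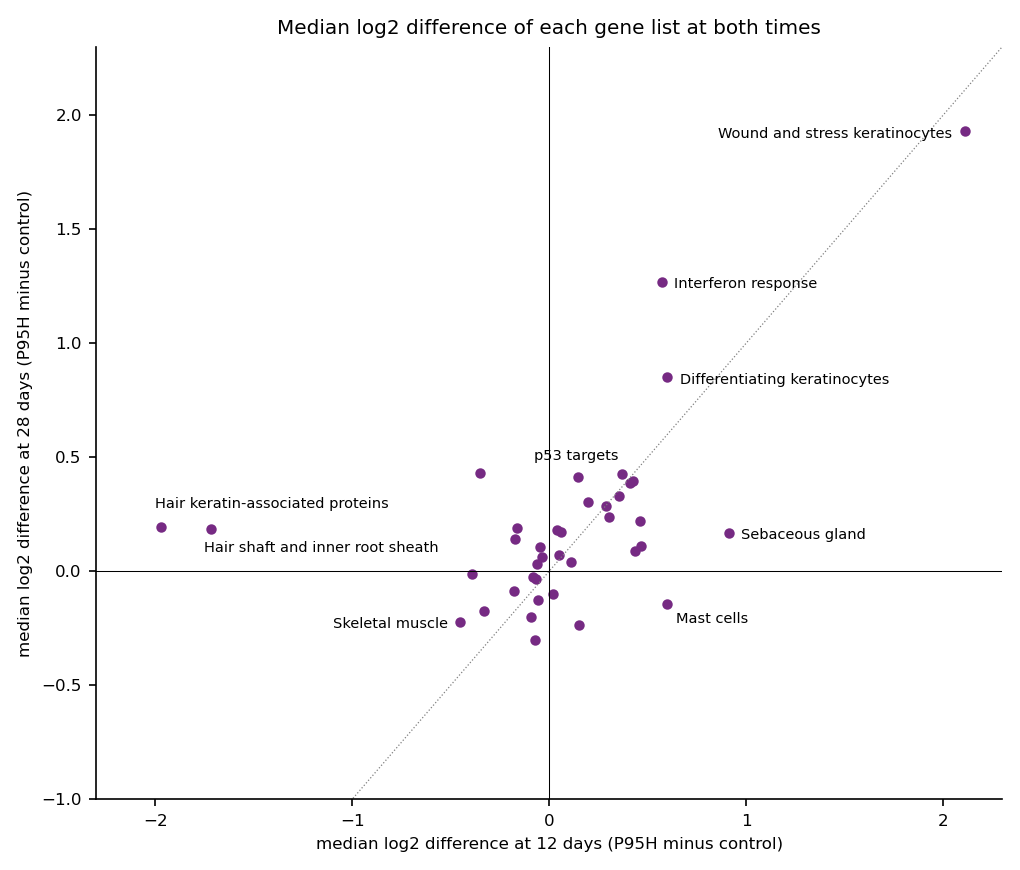
Median log2 difference (P95H minus control) of each gene list with at least 10 tested members at 12 days (horizontal axis) and 28 days (vertical axis), with a dotted line of equal values. Wound keratinocyte genes are near 2 on both days, interferon genes lie above the line (0.57 and 1.27) and sebaceous genes below it (0.91 and 0.17).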

How the data were processed

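Total RNA of whole back skin was extracted with Trizol and, per the labels' protocols, made into stranded libraries after depletion of ribosomal RNA (Ribo-Zero Plus). The authors deposited 1 table of normalised expression signal for 49585 genes in 14 libraries (2 P95H and 5 control at 12 days, 4 P95H and 3 control at 28 days). The submitters' processing notes name STAR, featureCounts and DESeq2, without versions, settings or a genome build. All deposited values were whole multiples of each library's smallest positive value (100%, tolerance 0.001), so each column was divided by it, giving steps. Steps are not reads: the median gene shift between libraries was -0.01 to 0.01 log2 in steps and -0.98 to 1.22 in the deposited values. The estimated depth assumes that the further factor restores the library's reads. All columns of the table could be mapped.

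Genes with a mean of at least 10 steps over the 14 libraries were tested with limma 3.58.1 (R 4.3.3, variance trend, 1 coefficient per group) on log2(steps + 1), with Benjamini-Hochberg adjustment over 18311 genes, and fold changes of low genes are understated by the added 1. The fit was tested on simulated data. Libraries of 1 group differed by more than counting noise. Gene positions are from GENCODE M21 (GRCm38), where 49326 identifiers matched. The comparison and its 45 gene lists were chosen with earlier results of these data known. Lists are described by counts and medians without set tests. The text names Srsf2, the 12 largest rises and falls with a mean of at least 50 steps and no overlap, up to 4 members of each list by smallest p and 12 fixed genes, and other called members after their values were seen. A few genes are not reported here by name. Each P95H and control sample carries its own mouse number, and nothing shows more than 1 library per mouse. With 2 P95H libraries their number limits precision. Alternatives covered scaling, pseudocount, filters, libraries in the fit, moderation, weights, a replicate block and each left-out library.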

Additional observations from a re-analysis of the deposited data

Results flagged for a closer look

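Among 280 named genes, the 5 control libraries were searched for a library far from the rest, by the gap to the nearest other library as a share of the group's range on the log2 scale (critical value 0.71). Chance flags about 1 in 20 such groups, and 24 were flagged. Control replicate 5 was the outlying library in 15 of them: Rspo3 (0.942), Mbp (0.83), Prpf19 (0.825), Dct (0.813), Snrpb (0.78), Cxcl16 (0.768), Krt1 (0.766), Bcor (0.761), Krt5 (0.759), Nkd2 (0.759), Dgat2l6 (0.755), Hist1h2bc (0.747), Slc45a2 (0.746), Flg2 (0.737) and Flt1 (0.729). Control replicate 2 stood apart in Fgfr2 (0.845), mt-Nd5 (0.726), mt-Nd2 (0.711) and Cyp51 (0.711). Control replicate 1 did so in Krt6b (0.818) and Hspa1a (0.76), control replicate 4 in 5830444F18Rik (0.755) and Epcam (0.746), and control replicate 3 in Soat1 (0.747).

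The P95H effect differed between the days, by limma's test of the difference, for 2 genes. Apol7a had a 28-day minus 12-day difference of 2.42 on the log2 scale (adjusted p = 0.00528). The clone-named RP23-392I13.15 had one of 3.99 (adjusted p = 0.0486), with 13 and 22 steps in P95H skin at 12 days against 5 to 10 in control skin.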

How the results depend on the processing

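The 1269 calls at 12 days (726 higher, 543 lower) became 208 (97 and 111) on deposited values, 2329 (1282 and 1047) with library quality weights, 786 (463 and 323) with the replicate block and 2366 (1272 and 1094) without the shallow 28-day P95H library. The last fit and those without controls 2 and 5 or with a term for low Xist were chosen after seeing the data. Leaving out 1 library in turn gave 323 to 1438 calls (203 to 811 higher, 120 to 627 lower), lowest without P95H replicate 2. Of the calls, 133 were shared with the deposited values, 711 with the block and 1254 with the weights. The 2 calls of the 28-day minus 12-day difference became 75 on deposited values, 30 with weights and 5 without the shallow library, and 1 with no filter, a mean of at least 50, controls 1, 2 and 3 only, the block, no controls 2 and 5 or the Xist term (1 to 7 without single libraries).

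Left-out libraries moved the list counts to 5 to 17 (p53 targets), 4 to 20 (wound), 4 to 19 (differentiating), 4 to 12 (sebaceous), 5 to 11 (cholesterol), 0 to 6 (muscle) and 0 to 7 (fibroblast). Deposited values gave 0 p53, 7 differentiating, 3 sebaceous, 0 cholesterol, 0 muscle and 0 fibroblast calls. The block gave 11 wound, 3 muscle and 2 fibroblast calls, and controls 1, 2 and 3 only gave 7 sebaceous, 3 muscle and 1 fibroblast. Muscle calls were 3 with no filter, 3 without controls 2 and 5, 9 with the 7 libraries at 12 days only, 13 with weights and 13 without the shallow library. Fibroblast calls were 2 with no filter, 3 with the 7 libraries only, 3 without controls 2 and 5 and 2 with the Xist term. The cause of these shifts was not tested. Other settings kept these list counts within 1.5 times. Deviations of same-numbered libraries at 12 days correlated at 0.062 and 0.367. The deviations of 2 P95H libraries mirror each other, so this check cannot decide whether replicate numbers pair the mice. No named gene that passed changed sign in any setting. Of 188 such genes, 45 passed with each library left out and 20 in every setting. With 1 P95H library left out, only 1 remains in that group. A lower count can then follow from lost precision, from the mouse left out or from both, and these were not told apart.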

Other observations

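These counts cover all tested genes, those of the lists above included. Of 14785 protein-coding genes 679 were higher and 447 lower in P95H skin (7.62% called). Of 2851 long non-coding and other genes 37 were higher and 77 lower (4% called). By chromosome, 5.42% (chromosome 8) to 8.69% (chromosome 16) of tested genes were called. The share over all tested genes was 6.93% (3.96% higher and 2.97% lower).

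Glutathione transferases moved apart: Gsta4 had 130 and 269 steps in P95H skin against 32 to 65 in control skin (log2 1.97, adjusted p = 0.00163), while Gsta2 had 27 and 21 against 52 to 67 (log2 -1.33, adjusted p = 0.00763). The aryl hydrocarbon receptor target Cyp1a1 had 811 and 561 steps against 193 to 430 (log2 1.19, adjusted p = 0.00908). The nerve growth factor receptor Ngfr, a marker of Schwann cells and nerve, had 138 and 169 steps against 252 to 334 (log2 -0.94, adjusted p = 0.00459), and the transcription factor Egr2 had 1693 and 1741 against 1124 to 1231 (log2 0.53, adjusted p = 0.00744). Flt4, a receptor of lymphatic endothelium, had 301 and 334 steps against 133 to 241 (log2 0.75, adjusted p = 0.0408). H2-Eb1, an MHC class II chain whose level varies between mouse haplotypes, had 4821 and 4297 steps against 1474 to 3656 (log2 1.01, adjusted p = 0.0387). The chaperone Cryab, abundant in muscle, had 2699 and 2135 steps against 3196 to 8663 (log2 -1.08, adjusted p = 0.0471).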
